A study of Mus musculus with 4 samples.

Results

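The regions described here are the peaks of Trim33 occupancy in mouse Th17 cells that lay between genes at some distance from them: their summits were outside every protein-coding gene of the mm10 RefSeq annotation, over 10 kb and at most 100 kb from the nearest gene end. They are called distal intergenic peaks below. On chromosomes 1 to 19 there were 4822 of them among 26631 peaks, or 18.1% (95% exact binomial interval 17.6% to 18.6%, which covers counting error only). The whole deposited list held 27050 peaks. The series has 2 libraries of chromatin immunoprecipitated with an antibody to Trim33 and 2 libraries of input DNA. All came from naive CD4+ T cells of C57BL/6 spleen and lymph nodes that had been turned into Th17 cells in culture on anti-CD3 and anti-CD28, with IL-6, TGF-b and antibodies to IL-4 and IFN-g. The deposited list is named as made from merged replicates, so each peak carries 1 value and no spread between libraries. The depth of the libraries is unknown, and no difference below could be tested over samples. Peak positions carry no expression level, so the cell type could not be checked against markers.

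Trim33, also known as TIF1-gamma, is a chromatin-bound ubiquitin ligase that binds SMAD proteins and, through a PHD finger and bromodomain, modified histone H3. It acts in the TGF-beta pathway, and TGF-beta together with IL-6 directs naive CD4 T cells to the Th17 fate. Sites between genes and far from any promoter are where many enhancers lie. An enhancer can act on a gene that is not its nearest one, so the gene names given with the peaks say where a peak was and not which gene it acts on.

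Sequence was at hand only for windows of 300 bases around gene starts. Of the distal intergenic peaks, 88 (1.82%) had their summit in such a window, in 96 windows of 91 genes, and all of these genes were long non-coding RNA (lncRNA) genes. The 100 bases at the summit are shown for 6 of the peaks of highest fold whose window held them whole, and for 2 more beside genes of the lists used below. The fold is the authors' enrichment at the summit over background. Sequences are from RefSeq (GRCm38.p6), 5′ to 3′ on the strand of the lncRNA gene, and capitals mark matches to the 9 motifs named after them.
1700096K18Rik: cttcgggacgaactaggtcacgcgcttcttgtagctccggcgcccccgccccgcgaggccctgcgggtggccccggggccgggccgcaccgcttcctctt
Rab10os: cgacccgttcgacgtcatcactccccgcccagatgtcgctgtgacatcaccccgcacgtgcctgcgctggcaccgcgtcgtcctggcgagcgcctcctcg
Gm41309: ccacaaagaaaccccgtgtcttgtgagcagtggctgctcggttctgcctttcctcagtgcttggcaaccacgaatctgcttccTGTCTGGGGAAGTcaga
E130018N17Rik: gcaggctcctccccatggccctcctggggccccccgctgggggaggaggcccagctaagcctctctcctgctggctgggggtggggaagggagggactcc
Gm35081: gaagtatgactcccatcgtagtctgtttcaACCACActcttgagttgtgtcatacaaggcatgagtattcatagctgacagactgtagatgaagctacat
Gm36897: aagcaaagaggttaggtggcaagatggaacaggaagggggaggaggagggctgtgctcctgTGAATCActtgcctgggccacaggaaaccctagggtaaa
Gm33104: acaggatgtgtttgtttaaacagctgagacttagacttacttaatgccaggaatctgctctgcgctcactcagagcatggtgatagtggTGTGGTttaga
Gm51814: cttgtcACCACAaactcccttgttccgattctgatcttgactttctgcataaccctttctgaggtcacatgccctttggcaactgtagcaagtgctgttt

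The first of these, at chr5:25529852-25529951 on the plus strand, was the summit of a 15.9-fold peak 116 bases before the start of the lncRNA 1700096K18Rik and 11875 bp from the coding gene Cct8l1. The Rab10os sequence lay at chr12:3235709-3235808 on the plus strand in a 12.3-fold peak, 11669 bp from the coding gene Rab10. Gm41309 (chr15:38602293-38602392, minus strand, 12.2-fold) was the only shown sequence with a CAGACA match, which overlapped a GTCTGG match and was followed by a GGAAGT match. E130018N17Rik (chr2:168154548-168154647, minus strand, 11.7-fold), like the first pair, held none of the motifs. Gm35081 (chr15:38144995-38145094, plus strand) had a 10.8-fold peak and a RUNX-type match, and Gm36897 (chr6:136463560-136463659, plus strand) had a 9.59-fold peak and an AP-1 match. Gm33104 (chr10:19494576-19494675, plus strand, 6.90-fold) lay 97323 bp from Ifngr1, which encodes a chain of the IFN-gamma receptor. Gm51814 (chr10:19062634-19062733, plus strand, 6.53-fold) lay 47274 bp from Tnfaip3, the gene of the NF-kB inhibitor A20. Both of these held a RUNX-type match.

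Over all 96 windows of 300 bases with a distal intergenic summit, AP-1-type letters (TGANTCA) were found in 20 windows (20.8%, interval 13.2% to 30.3%), against 9.15% of 11189 lncRNA windows without such a summit and 7.83% of all 31223 windows. The RUNX-type letters TGTGGT were in 31 windows (32.3%, 23.1% to 42.6%), against 20% of the other lncRNA windows and 16.7% of all windows. The core of the CTCF motif was in 4 windows (4.17%, 1.15% to 10.3%), against 0.608% of the other lncRNA windows and 0.669% of all windows. For the remaining 6 motifs the interval of the windows with a summit included the share of the other lncRNA windows. These were STAT-type TTCNNNGAA (10.4% against 9.34%), the SMAD-type letters CAGACA (22.9% against 25.1%) and GTCTGG (20.8% against 17.2%), ETS-type GGAAGT (27.1% against 21.9%), the E-box CAGGTG (21.9% against 21.2%) and the nuclear receptor type letters GGGTCA (16.7% against 13.8%). All windows together held the STAT letters in 8.35%, CAGACA in 20.8%, GTCTGG in 17.8%, GGAAGT in 23.8%, CAGGTG in 20.5% and GGGTCA in 13.8%. The median GC content was 51.7% in the windows with a summit, against 48.3% in the other lncRNA windows and 53.0% in all windows. The 5205 windows with the summit of another Trim33 peak were not limited to lncRNA starts and had a median GC content of 64.7%. Against these the intervals lay above for AP-1 (5.09%), RUNX (11%) and CAGACA (13.6%) and included the share for the CTCF core (1.40%), STAT (6.74%), GTCTGG (17.2%), GGAAGT (32.2%), CAGGTG (17.1%) and GGGTCA (13.6%). The interval of the CTCF core thus left out the share of the other lncRNA windows but not that of the windows with another peak, and for CAGACA it was the reverse. Both strands were searched. Some windows overlap each other, and the 96 windows held the summits of 88 peaks. The intervals take each window as independent, so they may be too narrow, and the CTCF share rests on 4 windows. The windows with a distal intergenic summit are at lncRNA starts, so they do not stand for the 4822 peaks as a whole. The part of gene kind and GC content in the differences from other windows was not tested.

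The authors' fold enrichment of the distal intergenic peaks had a median of 6.14, with quartiles at 4.99 and 7.98 and extremes at 2.09 and 54.6, and 647 of them (13.4%, interval 12.5% to 14.4%) reached 10-fold or more. Among the other 21809 peaks the median was 5.95 (4.84 and 7.73), and 10.6% (10.2% to 11.1%) reached 10-fold. Over all 26631 peaks the share at 10-fold or more was 11.1%. Peaks within 1000 bp of a gene end had the lowest share, 8.94%, followed by gene bodies away from the ends (10.9%) and positions outside genes at 1000 bp to 10 kb (11.9%). The interval of these near positions outside genes, 10.7% to 13.2%, overlaps that of the distal intergenic peaks. Only the 1474 peaks over 100 kb from genes had a higher share than the distal intergenic ones, 14.9% (13.1% to 16.8%), and the intervals of these 2 groups overlap. At the high end, 35 distal intergenic peaks (0.726%, interval 0.506% to 1.01%) reached 20-fold, against 0.523% of the other peaks and 0.559% of all peaks. This share was near those in gene bodies (0.729%) and in the near flanks (0.815%), while it was 0.136% at gene ends (0.0653% to 0.250%) and 0.475% farther than 100 kb. Of the 100 highest peaks on chromosomes 1 to 19, 22 were distal intergenic, and of the 1000 highest 218 (21.8%), beside 18.1% of all peaks there.

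**Figure D1:**
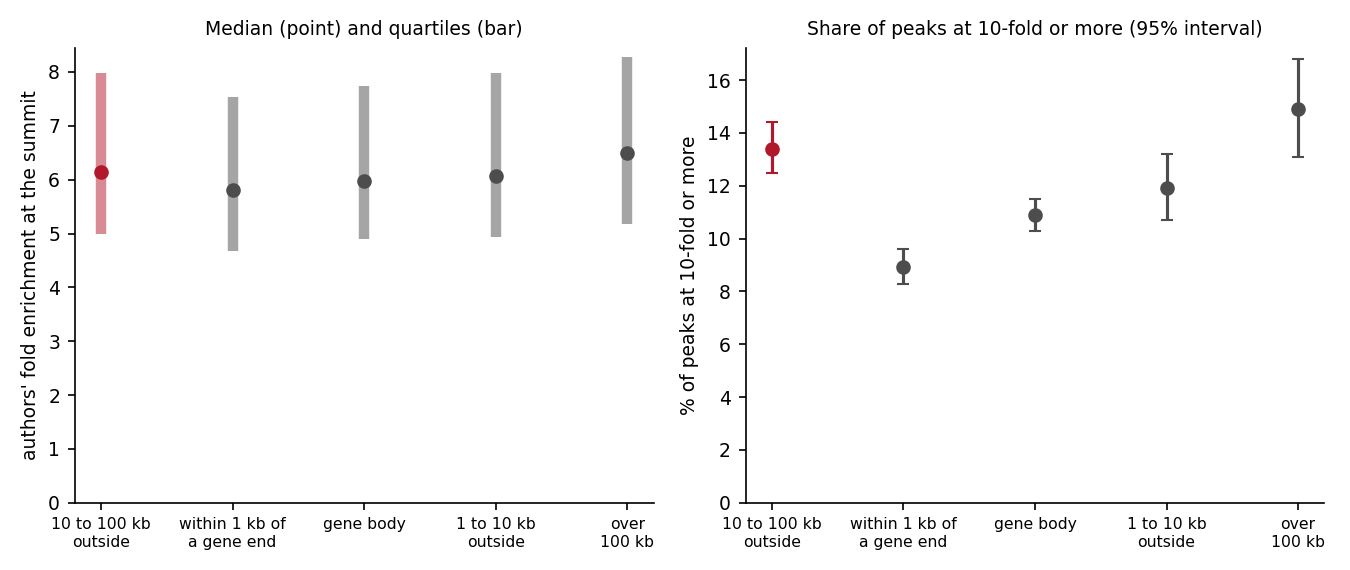
Authors' fold enrichment by position of the summit, in peaks on chromosomes 1 to 19. The left panel gives the median (point) and quartiles (bar) and the right panel the percentage of peaks at 10-fold or more with its exact binomial 95% interval; peaks 10 to 100 kb outside genes (red) had a median of 6.14 and 13.4% at 10-fold or more, and gene ends had 5.80 and 8.94%.

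The peaks were narrow. Their median width was 220.0 bp (quartiles 171 and 293 bp) and the widest spanned 1130 bp, against a median of 258 bp (190.0 and 366 bp) at gene ends and 218 bp in gene bodies. The median −log10 q at the summit was 11.4, against 10.7 at gene ends and 11.2 in gene bodies. Together the distal intergenic peaks covered 1209 kb.

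Within the limits, nearer positions held more summits. The median distance was 29379.5 bp (quartiles 17344 and 48389 bp), 1517 peaks (31.5%) lay within 20 kb and 1148 (23.8%) over 50 kb. In the gaps between genes the density of summits was 11.5 per Mb at 10 to 20 kb, 10.5 at 20 to 30 kb, 9.73 at 30 to 50 kb and 6.25 at 50 to 100 kb. Distant positions exist only in long gaps, however. In the 1393 gaps of 200 kb or longer, in which every distance occurs, the same densities were 6.50, 6.32, 6.71 and 5.40 per Mb, while within 1000 bp of a gene the same gaps held 81.1 summits per Mb outside genes, and 10.4 at 1000 bp to 10 kb. The fold differed little with distance: its median was 6.12, 6.10, 6.07 and 6.32 in the 4 ranges, and the share at 10-fold or more was 13.1%, 12.6%, 13.1% and 14.9% with overlapping intervals. At the limits themselves, the summits nearest to 10 kb were 9997 bp from St3gal5 (3.61-fold) and 9995 bp from Cth (12.1-fold) on the near side, and 10001 bp from Taf4b (10.5-fold) and 10002 bp from Xrn1 (8.32-fold) on the far side. The last inside 100 kb were 99858 bp from Trim24 (6.66-fold) and 99853 bp from Tmem174 (4.31-fold), and the first beyond it were 100094 bp from Cog6 (7.54-fold) and 100182 bp from Jarid2 (8.23-fold).

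**Figure D2:**
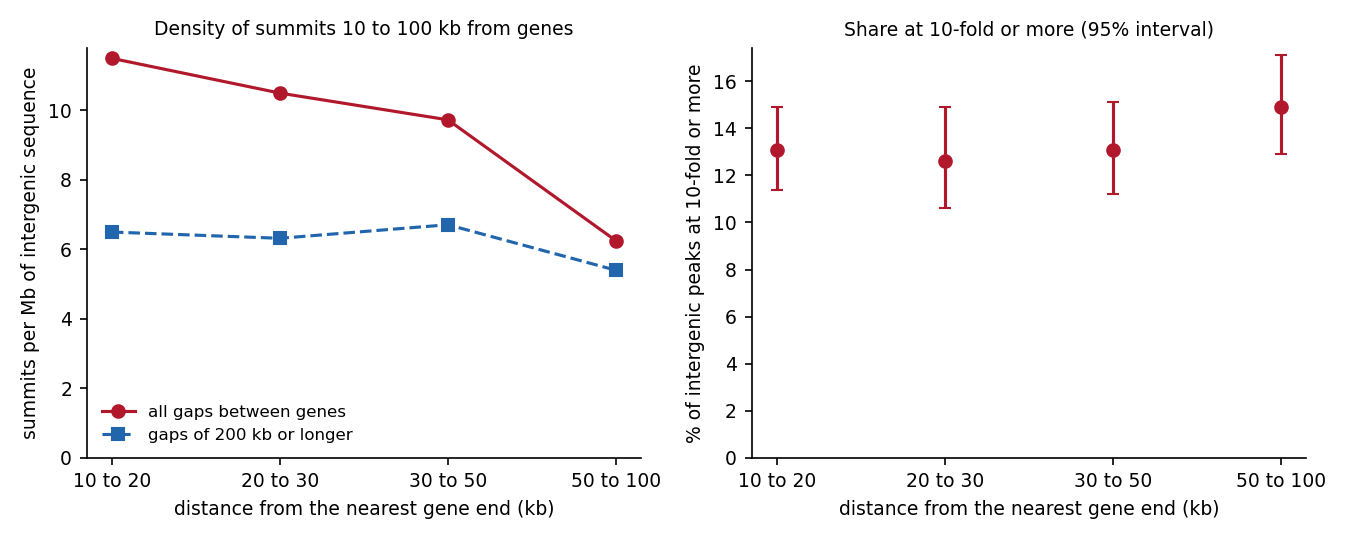
Distance of distal intergenic summits from the nearest gene end. Left, summits per Mb of intergenic sequence in all gaps (red, 11.5 to 6.25 per Mb) and in gaps of 200 kb or longer (blue, 6.50 to 5.40 per Mb); right, percentage of peaks at 10-fold or more with exact binomial 95% intervals, which overlap in all 4 ranges.

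A strand was at hand for the nearest gene of 3670 peaks. Of these, 2124 (57.9%, interval 56.3% to 59.5%) lay on the 5′ side of that gene and 1546 (42.1%) on its 3′ side. The 5′ sides also offered more sequence, 222 Mb against 187 Mb, so the density was 9.54 per Mb on the 5′ side against 8.28 per Mb on the 3′ side. The median fold was 6.12 on the 5′ side and 6.11 on the 3′ side, and the share at 10-fold or more was 12.1% (10.8% to 13.6%) on the 5′ side and 14.4% (12.6% to 16.2%) on the 3′ side, with overlapping intervals. The gene across the gap was at a median of 89738 bp, and in 2629 peaks (54.6%) it was within 100 kb as well.

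The highest peak of the whole series was a distal intergenic one. It lay at chr9:51982122-51982880, 54.6-fold enriched, 18980 bp on the 5′ side of Fdx1, which encodes a mitochondrial electron carrier, and 64568 bp from Rdx, the gene of the cytoskeletal linker radixin. The next of the distal intergenic peaks, in the tenth place of all peaks, was a 37.4-fold peak at chr4:8917197-8917703, 49035 bp from the chromatin remodeller gene Chd7. A 36.5-fold peak at chr8:95403683-95404162 was 16377 bp on the 3′ side of Cfap20, a cilia gene, with the metalloproteinase gene Mmp15 across the gap. A pair of peaks of 33.5-fold and 30.9-fold lay side by side at chr15:31651769-31652943 on the 3′ side of Atpsckmt. The 31.2-fold peak at chr1:51448579-51449225 was 16206 bp on the 3′ side of Nabp1, which encodes a single-stranded DNA binding protein, and another of 31.2-fold lay 14838 bp from the calcium sensor gene Casr.

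Among the rest of the 25 highest, a 27.4-fold peak at chr1:40053783-40054245 lay between the kinase gene Map4k4 (27730 bp) and Il1r2, the gene of the decoy receptor for IL-1 (30652 bp). The 27.0-fold peak nearest to Txndc16 (32007 bp) had Ptger2, which encodes a prostaglandin E2 receptor, across the gap at 98621 bp. Cxcr4, the receptor for CXCL12, had a 22.5-fold peak 19648 bp away, and Eomes, a T-box factor of cytotoxic and memory T cells, a 22.0-fold peak 96064 bp on its 5′ side. Dusp4, a phosphatase of MAP kinases, had 21.8-fold at 50471 bp, and Ccnd1, cyclin D1, 21.7-fold at 52164 bp. The 22.3-fold peak beside the pyrin gene Mefv had the olfactory receptor gene Olfr161 across the gap at 60787 bp, and the peaks of 27.6-fold, 27.2-fold, 26.1-fold, 24.1-fold and 23.5-fold were nearest to Rngtt, Cemip2, 4933412E24Rik, A530064D06Rik and Kcnj6. Those next to Tmem252 and Cryl1 shared the value of 23.3-fold, Cyria had 23.0-fold, Myo10 22.4-fold, Dhrs2 21.6-fold and Selenok 21.1-fold. These 25 peaks lay at 11020 to 96064 bp from genes, had a median width of 487 bp, and were evenly split where a strand was at hand, 10 on the 5′ side and 10 on the 3′ side. A single summit of the 25 lay in an annotated non-coding gene, the lncRNA Gm34489 near Cyria.

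The 4822 peaks had 2327 different nearest genes, or 11.3% of 20665 protein-coding genes. Gaps over 20 kb, the only ones between genes that can hold such a peak, were next to 11912 genes, and 19.5% of these were nearest to a peak. A single peak was found for 1250 genes (53.7% of the 2327). By contrast 196 genes had 5 or more and together took 1280 peaks (26.5%). Of the 8320 gaps over 20 kb, 1992 (23.9%) held a distal intergenic peak, and 27 held 10 or more.

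Cxcr4 had the most with Tomm20, 17 each. A gene beside a long gap is the nearest gene over more sequence, and the part of gap length in these counts was not tested. The peaks of Cxcr4 stretched from 13706 to 87640 bp, 14 of them on the 5′ side and 3 on the 3′ side. On the 5′ side they reached 10.8-fold at 13706 bp, 22.5-fold at 19648 bp, 14.5-fold at 80247 bp and 9.56-fold at 87640 bp, and the lowest was 3.5-fold. The next gene on that side, Thsd7b, was 661243 bp from the 22.5-fold peak. Tomm20, which encodes a mitochondrial import receptor, had all 17 on its 3′ side, up to 11.1-fold at 82921 bp, in the gap shared with the transcriptional co-repressor gene Irf2bp2, and 4 of them passed 10-fold. Klf6, a zinc finger factor gene, had 14 peaks up to 11.2-fold, 10 on the 5′ side and 4 on the 3′ side. The 4 on the 3′ side had 11.2, 10.4, 7.32 and 10.3-fold, and those on the 5′ side had 3.89 to 8.15-fold, so all 3 peaks past 10-fold were on the 3′ side.

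Ccdc71l and Basp1 had 13 each. The peaks of Ccdc71l reached 16.7-fold at chr12:32343548-32343806, and Pik3cg, the gene of the PI3-kinase gamma catalytic subunit of leukocytes, lay across the gap at 134976 bp. Those of Basp1, a gene of the Th17 list, reached 11.2-fold at 96015 bp. Trib2, a pseudokinase gene, had 12 peaks, 6 on each side, up to 12-fold. Chd7 had 11 with a median of 5.63-fold, of which only the 37.4-fold one passed 10-fold. Gm4832 had 11 up to 15.9-fold and the chemokine receptor gene Ccr1 had 11 of at most 7.32-fold, all on its 3′ side toward Xcr1. Nabp1 had 10 with a median of 5.12-fold beside its 31.2-fold peak.

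**Figure D3:**
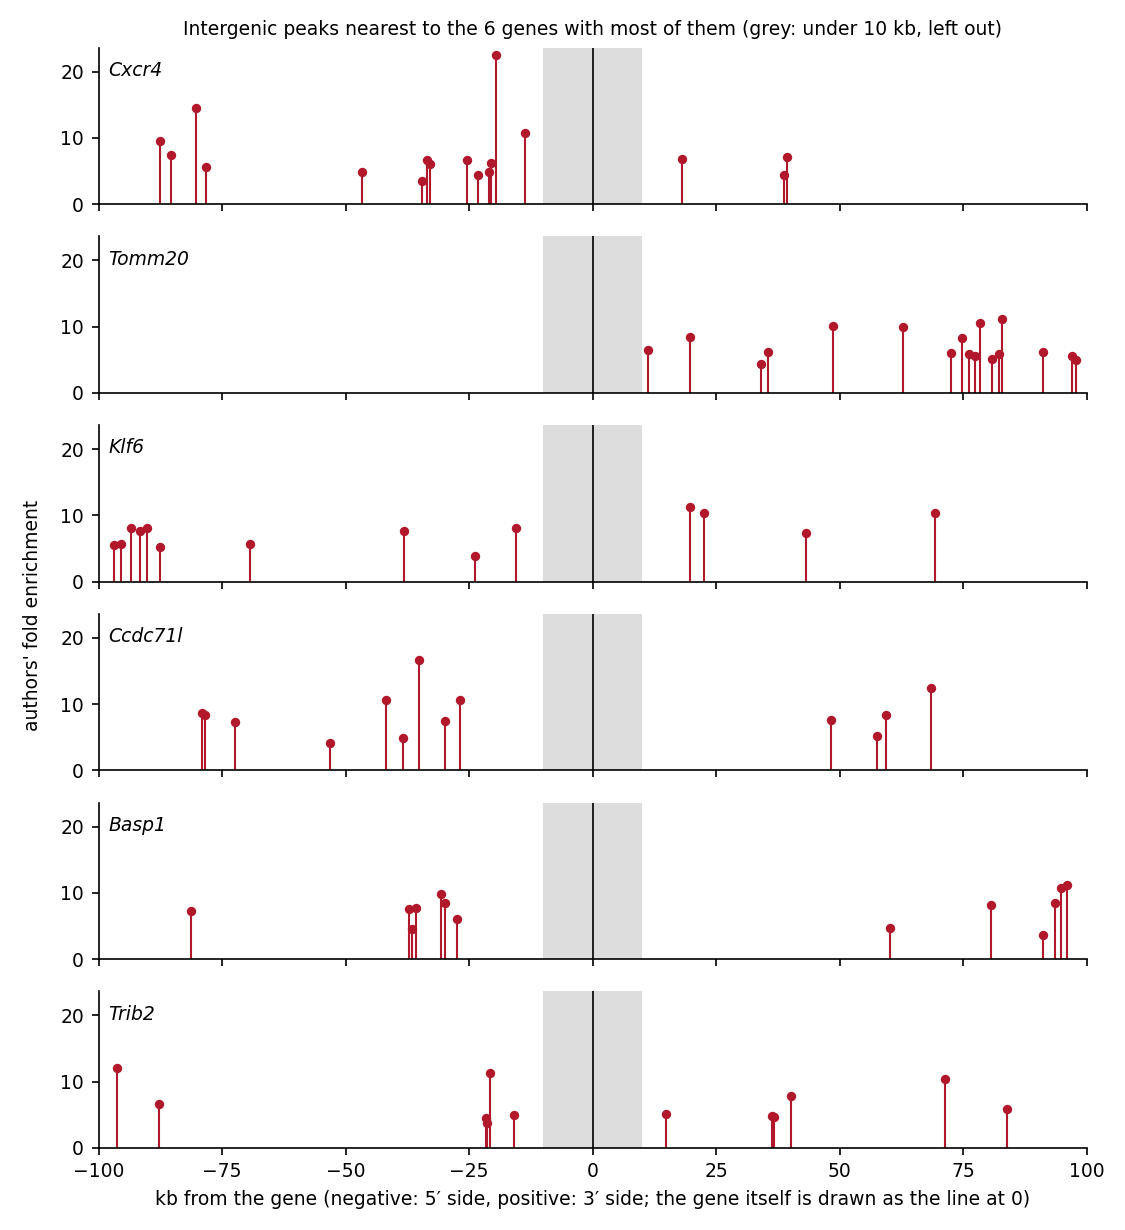
Position and fold of each distal intergenic peak nearest to Cxcr4, Tomm20, Klf6, Ccdc71l, Basp1 and Trib2. The x axis gives the distance in kb from the nearer end of the gene (5′ side left, 3′ side right), the y axis the authors' fold; the highest, 22.5-fold, stands 19648 bp from Cxcr4, and Tomm20 has peaks on its 3′ side only.

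Beyond these 10 genes, 27 others had 8 to 10 distal intergenic peaks. Dusp4 stood out for its level: its 9 peaks had a median of 9.95-fold, and 4 of them, at 11.4, 21.8, 13.0 and 13.4-fold, passed 10-fold. Tnfrsf19, a TNF receptor family gene, had 10 with a median of 9.07-fold, 5 of which passed 10-fold. Some other genes of this group are known in T cells and were picked for that. The rest, among them Sub1, Glrp1, Bcas1 and Smndc1, are left out here, so the names below do not describe the group. Tnfaip3 had 9 peaks of 3.98 to 6.53-fold, Myb, a factor of lymphoid progenitors, 9 up to 7.98-fold, and Prkcq, the kinase that links the T cell receptor to NF-kB, 8 up to 8.72-fold. Map3k8 had 9 up to 15.0-fold, Zfp36l2, which promotes mRNA decay, 9 up to 12.9-fold, Rgs1, a regulator of chemokine receptor signals, 8 up to 14.0-fold, Egln3, an oxygen sensor of the HIF pathway, 9 up to 18.4-fold, and Pmaip1, a pro-apoptotic BCL2 family gene, 8 up to 13.7-fold.

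Some distal intergenic peaks lay close together. With summits up to 10 kb apart joined, 364 runs had 3 or more peaks and together held 1409 of them (29.2%), while 2237 peaks (46.4%) stood alone. The median fold was 6.27 for peaks in such runs and 6.11 for those that stood alone. The run of most peaks, 15 over 59177 bp on chromosome 4, lay between Plekhf2 and 2610301B20Rik with 3.6 to 14.1-fold. Next came 12 peaks over 35066 bp between Tomm20 and Irf2bp2, 11 over 17942 bp between Ccr1 and Xcr1, 10 over 47700 bp next to Chd7 and 10 over 17814 bp next to Tnfrsf19. Another summit of any position was within 10 kb of 56.8% of the distal intergenic peaks, against 57.7% of all peaks, and within 1000 bp of 17.0%, against 19.7% of all peaks.

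Gene lists of the Th17 setting were read for genes that were nearest to a distal intergenic peak, beside the 11.3% of all protein-coding genes. In the list of quiescence and lymph node homing genes 14 of 18 (77.8%, interval 52.4% to 93.6%) were, in that of T cell receptor and identity genes 19 of 27 (70.4%), of IL-10 signalling and inhibitory receptor genes 12 of 18 (66.7%), of Th1 and Th2 programs 12 of 20 (60.0%) and of the Th17 program 14 of 24 (58.3%). For JAK-STAT and cytokine receptors it was 12 of 23 (52.2%), for regulatory T cell genes 7 of 14 (50.0%), for NF-kB and AP-1 genes 11 of 24 (45.8%) and for TGF-beta and SMAD genes 16 of 35 (45.7%). The lists of other cell types had lower shares, with 4 of 22 B cell and myeloid markers (18.2%, 5.19% to 40.3%) and 0 of 23 non-haematopoietic genes (0%, up to 14.8%). Both of these intervals include the 11.3% of all protein-coding genes. Housekeeping genes had 3 of 18 (16.7%), but only 6 of these 18 had a gap over 20 kb on either side. Among genes with such a gap, the shares were 95% for T cell receptor and identity genes (19 of 20), 85.7% for the IL-10 and the JAK-STAT lists (12 of 14 each), 77.8% for quiescence genes (14 of 18) and regulatory T cell genes (7 of 9), 75% for Th1 and Th2 genes (12 of 16), 66.7% for Th17 genes (14 of 21), 64.7% for NF-kB and AP-1 genes (11 of 17) and 55.2% for TGF-beta genes (16 of 29). The background over all such genes was 19.5%. Housekeeping genes then had 3 of 6 (50.0%), B cell and myeloid markers 4 of 13 (30.8%) and non-haematopoietic genes 0 of 15. The lists share some genes, were chosen with earlier results of these data known, and were not tested, and longer gaps offer more room: the median gap with a distal intergenic peak was 101 kb long, against 45.4 kb for gaps over 20 kb without one. The part of gap length in these shares was not tested.

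**Figure D4:**
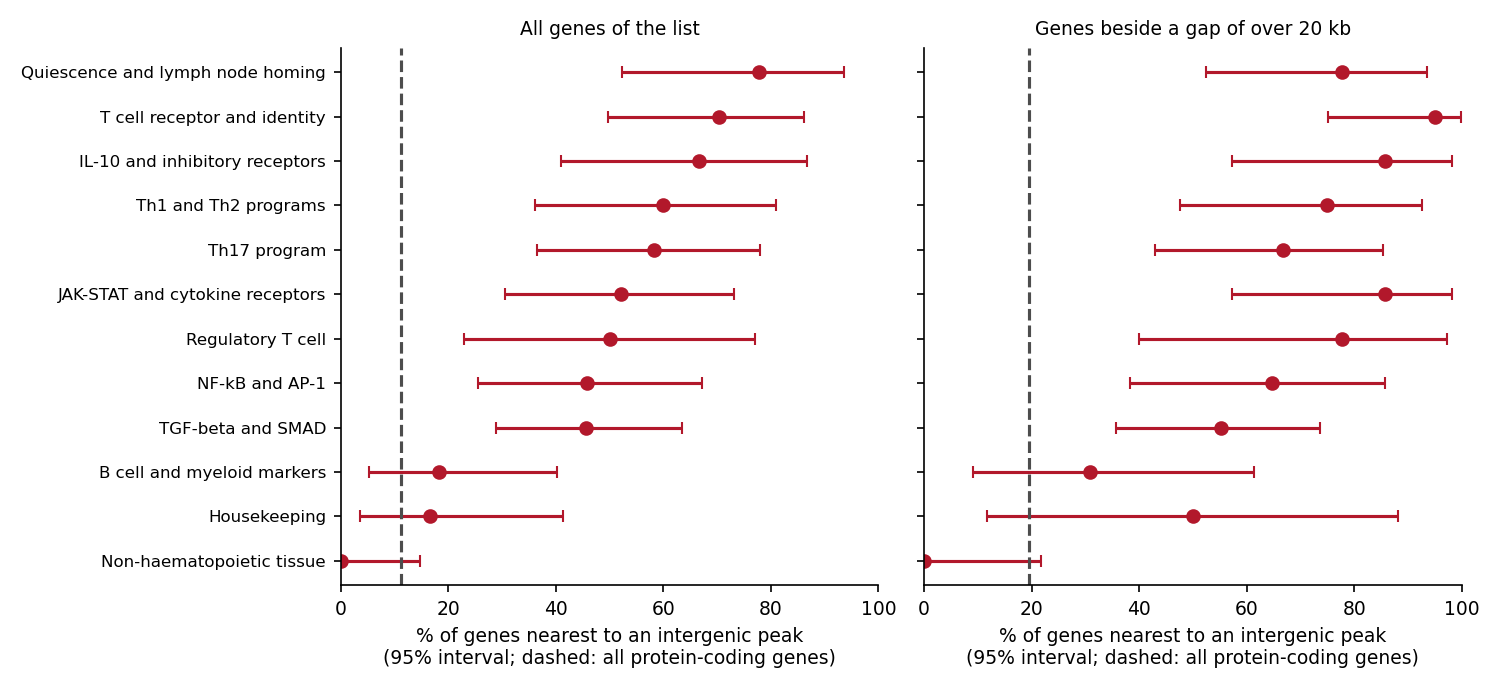
Percentage of the genes of each list that were nearest to 1 or more distal intergenic peaks, with exact binomial 95% intervals; the dashed line is the percentage over all protein-coding genes. The left panel takes all genes (background 11.3%), the right panel genes next to a gap over 20 kb (background 19.5%); T cell receptor and identity genes had 70.4% and 95%.

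In the Th17 list a peak of 10-fold or more was nearest to 6 of 24 genes (25%), beside 2.62% of all protein-coding genes. Ahr, a ligand-activated factor that promotes Il22, had 6 peaks, the highest of 13.0-fold at chr12:35553154-35553550, 18347 bp from the gene, and the others of 4.43 to 7.52-fold. Ccl20, the ligand of CCR6, had peaks of 11.5, 8.64 and 6.82-fold on its 5′ side and 1 of 5.63-fold on its 3′ side. Nfkbiz had 11.5-fold at 56772 bp, Runx1 11.1-fold at 41293 bp, Basp1 11.2-fold and Maf, an activator of Il10 and Il21, 10.7-fold at 77960 bp. The signature cytokine genes had lower ones. Il17a and Il17f shared the gap between them, in which 3 peaks of 7.46-fold (20113 bp from Il17a), 5.94-fold and 6.34-fold (20280 and 17151 bp from Il17f) lay, and Il17a had 1 of 6.49-fold at 30690 bp on its 5′ side. Il21 had 4 peaks of 5.48 to 7.22-fold, Il6st, the shared receptor chain of the IL-6 family, 6 up to 8.42-fold, Hif1a 5 up to 9.58-fold, and Lgals3 3 up to 9.94-fold. Irf4 and Ccr6 each had 1, of 5.16-fold and 3.47-fold. None was nearest to the other 10 genes of the list, among them Stat3, Batf, Il22 and Il23r. The median over the 59 peaks of the list was 6.82-fold. Basp1 alone gave 13 of these peaks, with a median of 7.77-fold.

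Among genes of IL-10 and of inhibitory receptors, Il10 itself was nearest to 7 peaks. They had 7.41, 9.22, 6.53, 5.26, 4.81 and 5.71-fold from 29073 to 14091 bp below the gene's lower end, toward Il19, and 3.92-fold at 13394 bp above its upper end. The highest peak of this list was a 20-fold one at chr9:88273289-88273659, 54142 bp on the 5′ side of Nt5e, which encodes CD73, the enzyme that makes adenosine. Il10ra and Il10rb, the receptor chains for IL-10, reached 10.5-fold and 10.3-fold. Among the inhibitory receptor genes, Pdcd1 had 1 peak of 8.86-fold at 26695 bp, Ctla4 4 up to 6.43-fold, Tigit 3 up to 6.62-fold and Btla 3 up to 6.51-fold. Bhlhe40, a repressor of Il10, had 4 up to 9.46-fold, Prdm1 1 of 5.57-fold and Cd200 1 of 3.84-fold. None was nearest to the other 6 genes of the list, Lag3, Havcr2, Cd200r1, Entpd1, Cd274 and Ikzf3. The median over the 41 peaks of the list was 5.71-fold.

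In the TGF-beta and SMAD list, peaks of 10-fold or more were nearest to 2 of 35 genes (5.71%, beside 2.62% of all genes). That share rests on 2 genes only, and its difference from all genes was not tested. Id2, an inhibitor of E proteins, had 6 peaks, all on its 5′ side, of 10.0-fold at 47582 bp, 3.92, 7.83 and 8.51-fold farther out, 18.2-fold at 94488 bp and 3.14-fold at 96401 bp. The 18.2-fold summit was 264 bp from an end of the lncRNA Gm36496. Smad2, a receptor-activated SMAD, had 15.1-fold at 25147 bp and 14.0-fold at 67176 bp, on opposite sides of the gene, and 3.59-fold at 17496 bp. The inhibitory Smad7 had 5 of 4.95 to 8.42-fold, and Smad4, Smad1 and Smad6 had 1 each, of 4.65, 8.09 and 4.56-fold. The receptor gene Tgfbr2 had 3 up to 8.28-fold and Tgfbr3 1 of 2.97-fold. Among the co-repressors and inhibitors, Skil had 5.42-fold, Pmepa1 4.45-fold and Tgif1 2 peaks up to 6.22-fold. Trim33 itself had 6 peaks, of 4.29, 7.59, 4.02, 5.61, 4.21 and 7.32-fold at 17204 to 38927 bp, all on the side of Syt6. Id3 reached 8.74-fold, Itgav, a chain of integrins that activate TGF-beta, 7.92-fold, Zeb1 6.82-fold and Zeb2 9.02-fold. None was nearest to the other 19 genes of the list, among them Tgfb1, Tgfbr1, Smad3 and Ski, and the median over the 40 peaks of the list was 6.23-fold.

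The 67 peaks nearest to T cell receptor and identity genes had a median of 5.15-fold, below the 6.14-fold of all distal intergenic peaks. A peak of 10-fold or more was nearest to 6 of the 27 genes (22.2%), beside 2.62% of all protein-coding genes. Cd2, an adhesion receptor, had 7 peaks, of which 3 passed 10-fold: 20.1-fold at 40357 bp, 11.6-fold at 46857 bp and 10.6-fold at 51773 bp. Lcp2, which encodes the adaptor SLP-76, had 6, the highest of 17.8-fold at 23945 bp on its 5′ side. Cd28 reached 11.8-fold, Cd5 10.4-fold, Fyn 10.3-fold and Tox 10.1-fold. Satb1, a chromatin organiser, had 7 of at most 7.46-fold, Ets1 6 up to 6.26-fold and Runx3 5 up to 8.50-fold, while Bcl11b had 1 of 3.96-fold and Gata3 1 of 5.15-fold.

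Among cytokine receptors and their signal transducers, Cish, an inhibitor of STAT5 signals, reached 14.9-fold at 10227 bp, Ifngr1 11.9-fold at 76933 bp, Jak2 11.7-fold at 41341 bp, Il4ra 10.8-fold and Il7r 10.3-fold. Of the NF-kB and AP-1 genes, Batf3 reached 14.4-fold at 14397 bp, Nfkb1 12.7-fold at 58790 bp, Fos 11.8-fold at 26581 bp and Fosl2 10.3-fold. Nrp1 had 15.4-fold and Icos 14.1-fold among regulatory T cell genes, and Foxo1 had 10.1-fold. Slfn2, a gene of T cell quiescence, had peaks of 20.4 and 11.6-fold, Ccr7, the receptor that guides T cells to lymph nodes, reached 12.8-fold and Btg1 10.9-fold. In the Th1 and Th2 list, beside Eomes, Nfil3 reached 11.4-fold and Il33 10.4-fold, Ifng had 4 up to 6.81-fold and Il5 2 up to 6.47-fold. None of the 22 B cell and myeloid markers was nearest to a peak of 10-fold or more, beside 2.62% of all protein-coding genes. A list of this length is too short to tell none from that share. The markers with a peak were Cr2 (8.24-fold), Itgam (7.46-fold), Cebpb (4 up to 5.19-fold) and Adgre1 (4.84-fold). Among the housekeeping genes, Ywhaz had 7 peaks up to 8.58-fold and Actb 3 up to 8.27-fold.

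Some distal intergenic peaks lay in or near annotated non-coding genes. Summits of 1021 distal intergenic peaks (21.2%, interval 20% to 22.4%) were inside lncRNA genes, against 11.4% of all peaks, 16.9% in the near flanks and 28.7% beyond 100 kb. Within 1000 bp of an lncRNA end were 384 (7.96%, 7.21% to 8.76%), against 7.36% of all peaks and 12.2% of those at protein-coding gene ends. Their folds were near those of the rest: the median was 6.10 at lncRNA ends, 6.22 inside lncRNA genes away from the ends and 6.12 for the 3625 peaks without lncRNA, and the shares at 10-fold or more were 12%, 12.1% and 13.9% with overlapping intervals. The highest at an lncRNA end were 19.7-fold at Gm30549, 21318 bp from F13a1, the 18.2-fold peak at Gm36496 near Id2, and 17.8-fold at 4930546K05Rik near Sc5d.

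MicroRNA hairpins were within 5 kb of 17 distal intergenic peaks (0.353%, interval 0.206% to 0.564%), against 0.973% of all peaks and 1.76% of those at gene ends. A pair of peaks of 6.13-fold (chr14:115040419-115041088) and 7.13-fold (chr14:115041994-115042341) lay on the 5′ side of the cluster of miR-17, miR-18a, miR-19a, miR-20a, miR-19b and miR-92a, a cluster that promotes lymphocyte proliferation and survival, with summits 2934 and 1478 bp from the first hairpin. A peak of 4.65-fold was 2802 bp on the 5′ side of the hairpin of miR-146a, a brake on NF-kB signals. The mature miRNAs of these hairpins are shown because both loci act in T cells, with the seed (bases 2 to 8) in capitals; miR-17 and miR-20a share 1 seed, and miR-19a and miR-19b share another.
mmu-miR-17-5p: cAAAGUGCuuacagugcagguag
mmu-miR-20a-5p: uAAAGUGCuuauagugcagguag
mmu-miR-18a-5p: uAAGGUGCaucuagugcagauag
mmu-miR-19a-3p: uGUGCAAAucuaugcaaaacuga
mmu-miR-19b-3p: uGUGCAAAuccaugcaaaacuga
mmu-miR-92a-3p: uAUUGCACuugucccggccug
mmu-miR-146a-5p: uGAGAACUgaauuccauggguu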

How the data were processed

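The authors deposited 1 peak list, named as made from merged replicates of the 2 Trim33 ChIP libraries, and 0 columns of per-sample values were present. The submitters' processing notes name MACS2 (version 2.1.1.20160309), the read mapper Bowtie (version 1.2.1.1), Trim Galore (version 0.3.7) and the mm10 build. The sources used here give no settings, calling threshold or control. The deposited fold enrichment is a ratio of the signal at the summit to its background, and the deposited −log10 p-value and −log10 q-value describe the same summit. The score deposited by the authors repeats the −log10 q on a scale multiplied by 10 and was not used further. Whether merging came before or after calling is not stated. It hides the spread between libraries either way, and peaks are not replicates, so no p-value is given.

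Summits were placed against 20665 protein-coding genes on 19 chromosomes in a RefSeq table of GRCm38.p6, the same assembly as mm10. Strand came from RefSeq promoter windows (250 bases before to 50 after a start), which matched 16457 of these genes by identifier. Assembly gaps were not removed from intergenic lengths. Coordinates count from 1. The placement rule was checked on simulated positions. Shares carry 95% Clopper-Pearson intervals; scipy 1.17.1 and pandas 2.3.3 were used. Intergenic peaks and lists were chosen with earlier results of these data known. Of the list genes, 6 were not on these chromosomes, and the values of some others are not reported here.

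Named genes are those beside the 25 highest peaks, the 10 genes with most peaks, the 5 longest runs, and up to 4 genes of each list by fold, with Th17, IL-10 and TGF-beta genes at 10-fold or more; other list genes, genes with 8 or more peaks, genes at lncRNA ends and miRNAs were named after their values were seen. The planned windows of 200 bases at all summits were replaced by RefSeq windows of 300 bases at gene starts, since no genome sequence was used here.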

Additional observations from a re-analysis of the deposited data

How the results depend on the processing

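No paired analysis was possible because both ChIP libraries were pooled into a single list, and for the same reason no replicate could be left out. Depth is unknown, so a gene without a peak may have had one under the calling threshold. The shares of summit windows with a motif were not run with another window, as sequence was at hand only at gene starts. Peaks at or above the median fold, or at or above the median −log10 q, left 2537 or 2511 distal intergenic peaks, 19% or 18.8% of the peaks kept, by construction with a higher median fold (7.89 or 7.91) and share at 10-fold or more (25.5% or 25.8%), with 7.66% or 7.44% of genes nearest to one and 110 or 120 runs of 3 or more. With all genes of the table, non-coding ones included, 3066 peaks (11.5%) met the limits, with a median of 6.27-fold, 15.3% at 10-fold or more, 4.0% of genes nearest to one, 207 runs and 48.5% within 20 kb. Without Olfr, Vmn, Gm and Rik symbols the share of peaks was 18.7% and that of genes 13.4%. A lower limit of 5 kb gave 22.7% of peaks, 14.1% of genes and 45.2% within 20 kb, a lower limit of 20 kb 12.4% of peaks and 7.74% of genes, and an upper limit of 50 kb 13.8% of peaks, 9.90% of genes and 41.3% within 20 kb, all as the limits imply. Of the 69 values under these and other settings 40 stayed within their interval or within 1.5 times the count, among them all 12 list shares when the genes on both sides within 100 kb were counted. Counting both sides can only add genes, and the intervals of these short lists are wide, so this outcome says little. The share of all protein-coding genes rose as well, from 11.3% to 15.1%. The densities in gaps of 200 kb or longer were chosen after seeing the data.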

Other observations

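Chromosomes differed in their distal intergenic peaks. The count ran from 142 on chromosome 19 to 414 on chromosome 1, and the share of a chromosome's peaks from 13.7% on chromosome 7 to 23.1% on chromosome 12, with a median of 18%. Per Mb of sequence at 10 to 100 kb from genes there were 6.04 on chromosome 7 and 12.5 on chromosome 15, with a median of 8.78. The median fold ran from 5.92 on chromosome 11 to 6.58 on chromosome 8.

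Pseudogene ends were within 1000 bp of 68 distal intergenic summits (1.41%), against 0.736% of all peaks and 1.33% in the near flanks. Of these 68, 1.47% reached 10-fold or more, against 13.4% of all distal intergenic peaks and 9.18% of all peaks at pseudogene ends. The difference was not tested. Ends of tRNA genes were within 1000 bp of 11 (0.228%), against 0.207% of all peaks. Of the distal intergenic peaks, 93.2% had exactly the same fold, −log10 p and −log10 q as some other peak of the list, against 92.2% of all peaks, so their ranks hold many ties.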
